A study of Mus musculus with 12 samples.

Results

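The IL-1 family genes measured here are the agonist ligands Il1a, Il1b and Il18, the receptor antagonist Il1rn, the decoys Il1r2 and Il18bp, the receptor chains Il1r1 and Il1rap, and the processing protease Casp1. They were chosen by name, and these 9 genes, out of 52355 summed from the deposited transcripts, were all measured. The RNA came from CD11c cells of the mouse inguinal node, in 12 libraries, 4 per group. In the TdLN_CD40 group the node drained a subcutaneous KPC tumor and a CD40 agonist was given. In the TdLN group the node drained such a tumor and no agonist was given, and in the Healthy group there was neither tumor nor agonist. CD40 is a co-stimulatory receptor on antigen-presenting cells, CD11c is the integrin chain commonly used to collect dendritic cells, and KPC is a mouse pancreatic cancer model. The sources used here do not give strain, age, agonist dose and timing, any control injection, the way the CD11c cells were collected, or whether each library came from a separate animal. The p-values therefore measure the spread between these libraries, which may be technical in part.

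Interleukin-1 alpha and interleukin-1 beta both bind the signalling receptor Il1r1, which recruits its accessory chain Il1rap and then MyD88 and the IRAK kinases to activate NF-kB. Signalling is held back at several points: Il1rn occupies Il1r1 without recruiting the accessory chain, Il1r2 binds ligand but lacks the signalling domain, and Il18bp captures interleukin-18 in solution. Interleukin-1 beta and interleukin-18 are made as inactive precursors that caspase-1 cleaves in the inflammasome, so a transcript level is not the level of active cytokine. In lymph nodes, dendritic cells, macrophages, monocytes and neutrophils are known sources of these genes.

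The sequences shown are the 250 bases before the transcription start of the 3 genes on which the results turn, taken from RefSeq on GRCm38.p6 and written 5′ to 3′ on the gene's own strand. Il1rn has 2 groups of starts, and the window before each is given because the transcripts from the 2 starts were measured separately below. The windows are chr2:24336610-24336859 (plus strand) for the distal Il1rn start, chr2:24345041-24345290 (plus strand) for the proximal Il1rn start, chr2:129371140-129371389 (minus strand) for Il1b and chr7:102018233-102018482 (minus strand) for Il18bp. Capitals mark a match to 1 of 4 motifs searched on both strands.
Il1rn distal start: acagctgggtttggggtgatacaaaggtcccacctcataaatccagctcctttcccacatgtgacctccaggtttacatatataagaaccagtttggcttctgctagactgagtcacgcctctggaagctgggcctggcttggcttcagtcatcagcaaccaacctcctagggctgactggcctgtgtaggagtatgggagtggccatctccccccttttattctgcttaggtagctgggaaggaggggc
Il1rn proximal start: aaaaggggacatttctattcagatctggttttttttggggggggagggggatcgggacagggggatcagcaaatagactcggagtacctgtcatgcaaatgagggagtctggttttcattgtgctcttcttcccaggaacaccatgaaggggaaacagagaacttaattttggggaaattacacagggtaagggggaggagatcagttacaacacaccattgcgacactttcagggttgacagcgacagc
Il1b: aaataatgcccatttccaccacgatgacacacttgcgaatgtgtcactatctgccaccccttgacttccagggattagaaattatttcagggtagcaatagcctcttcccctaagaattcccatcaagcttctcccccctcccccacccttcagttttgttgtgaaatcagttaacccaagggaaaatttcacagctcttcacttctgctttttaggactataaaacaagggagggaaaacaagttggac
Il18bp: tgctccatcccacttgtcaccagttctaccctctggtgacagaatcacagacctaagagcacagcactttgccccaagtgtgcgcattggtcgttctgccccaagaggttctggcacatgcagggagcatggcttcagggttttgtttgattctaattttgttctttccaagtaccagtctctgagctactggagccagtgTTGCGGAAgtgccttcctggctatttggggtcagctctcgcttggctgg
The motifs were the kB core GGANTTTCC, the interferon-stimulated response element core GAAANNGAA, the gamma-activated site TTCNNNGAA and the C/EBP motif TTGCNNAA, and they were present in 1.07%, 7.13%, 7.02% and 9.56% of the 32851 promoter windows of the same length. The Il18bp window held 1 match, the C/EBP letters TTGCGGAA, 49 bases before the start. The 2 Il1rn windows and the Il1b window held none of these letters. A match is a description of the letters, not of a binding site.

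The libraries held between 32626784 and 56320661 estimated counts, and the least covered member, Il1a, still had 4.79 CPM (counts scaled to library size) on average in its lowest group. Markers of the labelled cells were present in every library: Itgax, which encodes CD11c, ranged from 177 to 339 TPM (transcript abundance scaled to length and library size), the dendritic cell genes Flt3 and Zbtb46 from 54.5 to 165 TPM and from 25.4 to 48.8 TPM, and the MHC class II gene H2-Ab1 from 2271 to 5943 TPM. TdLN replicate 3 stood apart, with the highest CPM of each of the 9 members among the TdLN libraries, and results that rest on it are given with and without it. Gene levels are given in CPM, which is not divided by gene length and compares libraries within a gene, and in TPM, which is. Log2 fold changes, their standard errors (SE) and Benjamini-Hochberg adjusted p-values come from edgeR's quasi-likelihood test fitted on all 12 libraries, and a gene was called at an adjusted p under 0.05. The title of each library carries a prefix that 1 library of each group shares; replicates of the same number share a prefix, and a second fit took the prefix as a block. Where p-values of both fits are given, the fold change is that of the fit without the block. In bulk RNA, fewer cells of a type and less RNA per cell cannot be told apart.

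Set against the Healthy group, TdLN cells had more Il1rn, and no other member was called. Of the 9 members, 1 was called in this comparison, beside 0.198% of the 23729 genes tested (0.181% higher and 0.0169% lower), and the median log2 fold change was 0.20 over the members and -0.02 over all genes. With the agonist, Il18bp and Il18 rose over TdLN, so that 2 of 9 members were called, beside 2.68% of all genes (1.85% higher and 0.830% lower). TdLN_CD40 cells set against Healthy cells had higher Il1a, Il1rn, Il18 and Il18bp, 4 of 9 members, beside 6.28% of all genes (4.25% higher and 2.03% lower). The median log2 fold change of the members was 0.17 against 0.02 over all genes in TdLN_CD40 over TdLN, and 0.88 against -0.03 in TdLN_CD40 over Healthy. These comparisons share groups and are not independent of each other. With the prefix as a block the counts were 1 member (Il1rn), 3 members (Il18 and Il18bp higher, Il1rap lower) and 6 members (Casp1 also higher and Il1rap lower), beside 6.30% (4.02% higher and 2.28% lower), 13.3% (6.74% higher and 6.58% lower) and 20.1% (11.7% higher and 8.46% lower) of all genes.

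**Figure D1:**
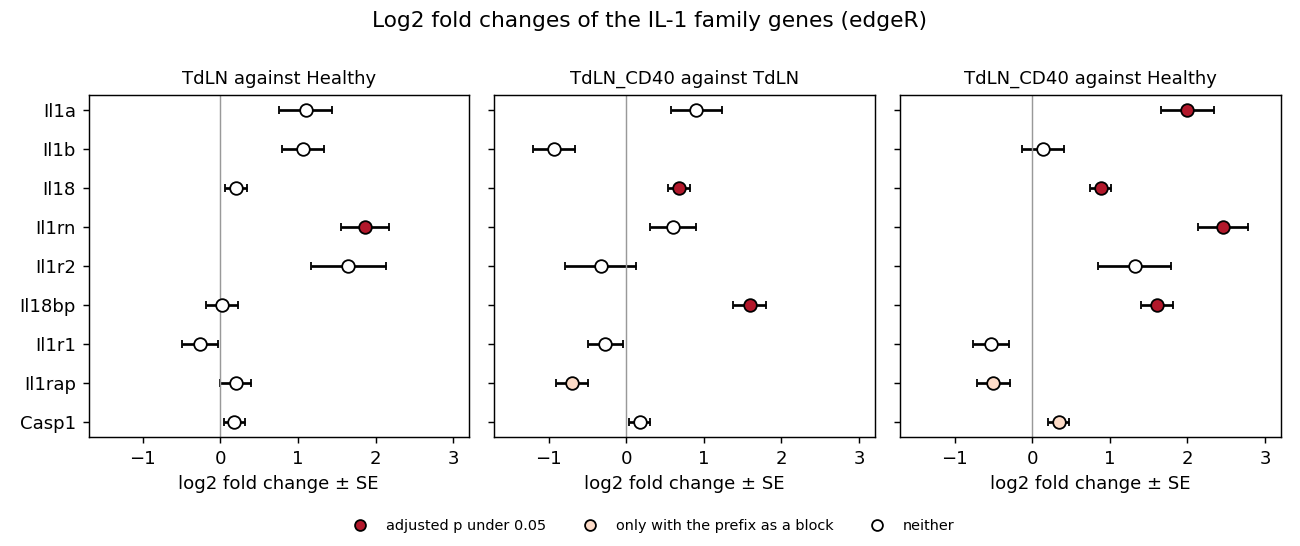
Log2 fold changes (x axis, with SE) of the 9 IL-1 family genes (y axis) in the 3 comparisons, from edgeR without the prefix as a block; dark fill marks genes called at an adjusted p under 0.05 and pale fill those called only with the prefix as a block. Il1rn is called in TdLN over Healthy (1.86), Il18 and Il18bp in TdLN_CD40 over TdLN (0.68 and 1.59), and Il1a, Il1rn, Il18 and Il18bp in TdLN_CD40 over Healthy.

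Among the agonist ligands, Il1b, the main secreted IL-1 of myeloid cells, was highest in the TdLN group. It stood at 88.5, 69.9, 66.7 and 45.7 CPM in TdLN_CD40 replicates 1 to 4, at 108, 130, 212 and 67.6 CPM in TdLN replicates 1 to 4, and at 64.3, 58.4, 62.3 and 61.5 CPM in Healthy replicates 1 to 4. Every TdLN library was above every Healthy library, though TdLN replicate 4 only just, and the TdLN_CD40 libraries lay on both sides of the Healthy ones. The log2 fold change was 1.07 (SE 0.27, adjusted p = 0.159) for TdLN over Healthy, higher in 4 of 4 prefixes, and -0.93 (SE 0.27, adjusted p = 0.0958) for TdLN_CD40 over TdLN, lower in 4 of 4 prefixes, so that neither passed the test. TdLN_CD40 over Healthy gave 0.14 (SE 0.27, adjusted p = 0.873). The Il1b differences rest on a few TdLN libraries: without TdLN replicate 3 they were 0.72 (adjusted p = 0.607) over Healthy and -0.59 (adjusted p = 0.280) for TdLN_CD40 over TdLN, and without TdLN replicate 4 they were 1.28 (adjusted p = 0.0294) and -1.17 (adjusted p = 0.0234). DESeq2 called both, at adjusted p = 0.00930 and 0.0139.

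Il1a, the ligand that is active without cleavage, was 17.2, 18.5, 25.3 and 15.3 CPM in TdLN_CD40 replicates 1 to 4, 5.72, 10.9, 17.9 and 6.34 CPM in TdLN replicates 1 to 4, and 3.69, 7.36, 3.82 and 4.28 CPM in Healthy replicates 1 to 4. Unlike Il1b in mean level, it was highest with the agonist, and all TdLN_CD40 libraries exceeded all Healthy ones, while the TdLN group overlapped with both. Il1a rose in TdLN_CD40 over Healthy, with a log2 fold change of 2.0 (SE 0.34, adjusted p = 0.00289). The steps between neighbouring groups did not pass the test, at 1.10 (SE 0.34, adjusted p = 0.295) for TdLN over Healthy and 0.90 (SE 0.33, adjusted p = 0.220) for TdLN_CD40 over TdLN, although each was positive in 4 of 4 prefixes. TdLN replicate 3 bears on both: without it they were 0.68 (adjusted p = 1.0) and 1.32 (adjusted p = 0.0417).

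Il18, the caspase-1 substrate that drives interferon gamma production by lymphocytes, rose with the agonist. It was 46.5, 37.7, 44.1 and 33.9 CPM in TdLN_CD40 replicates 1 to 4, 24.9, 25.3, 30.6 and 20.1 CPM in TdLN replicates 1 to 4, and 23.9, 20.4, 21.8 and 21.9 CPM in Healthy replicates 1 to 4. Each TdLN_CD40 library was above every library of the other groups, which overlapped with each other. The log2 fold change was 0.68 (SE 0.14, adjusted p = 0.0198) for TdLN_CD40 over TdLN and 0.88 (SE 0.14, adjusted p = 0.00196) for TdLN_CD40 over Healthy, and 0.20 (SE 0.14, adjusted p = 0.769) for TdLN over Healthy. The first call was lost without TdLN_CD40 replicate 1 (0.61, adjusted p = 0.0652), TdLN_CD40 replicate 3 (0.64, adjusted p = 0.0632), TdLN replicate 1 (0.67, adjusted p = 0.0588), TdLN replicate 2 (0.68, adjusted p = 0.0638) or TdLN replicate 4 (0.57, adjusted p = 0.0696). It was also lost without any 1 of the 4 prefixes in all groups, at adjusted p = 0.0597 to 0.143. These losses are from edgeR without the block. In the blocked fit Il18 was called in TdLN_CD40 over TdLN, at 0.68 (SE 0.10, adjusted p = 0.000806). It was also called there over Healthy, at 0.87 (SE 0.10, adjusted p = 9.96e-05).

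**Figure D2:**
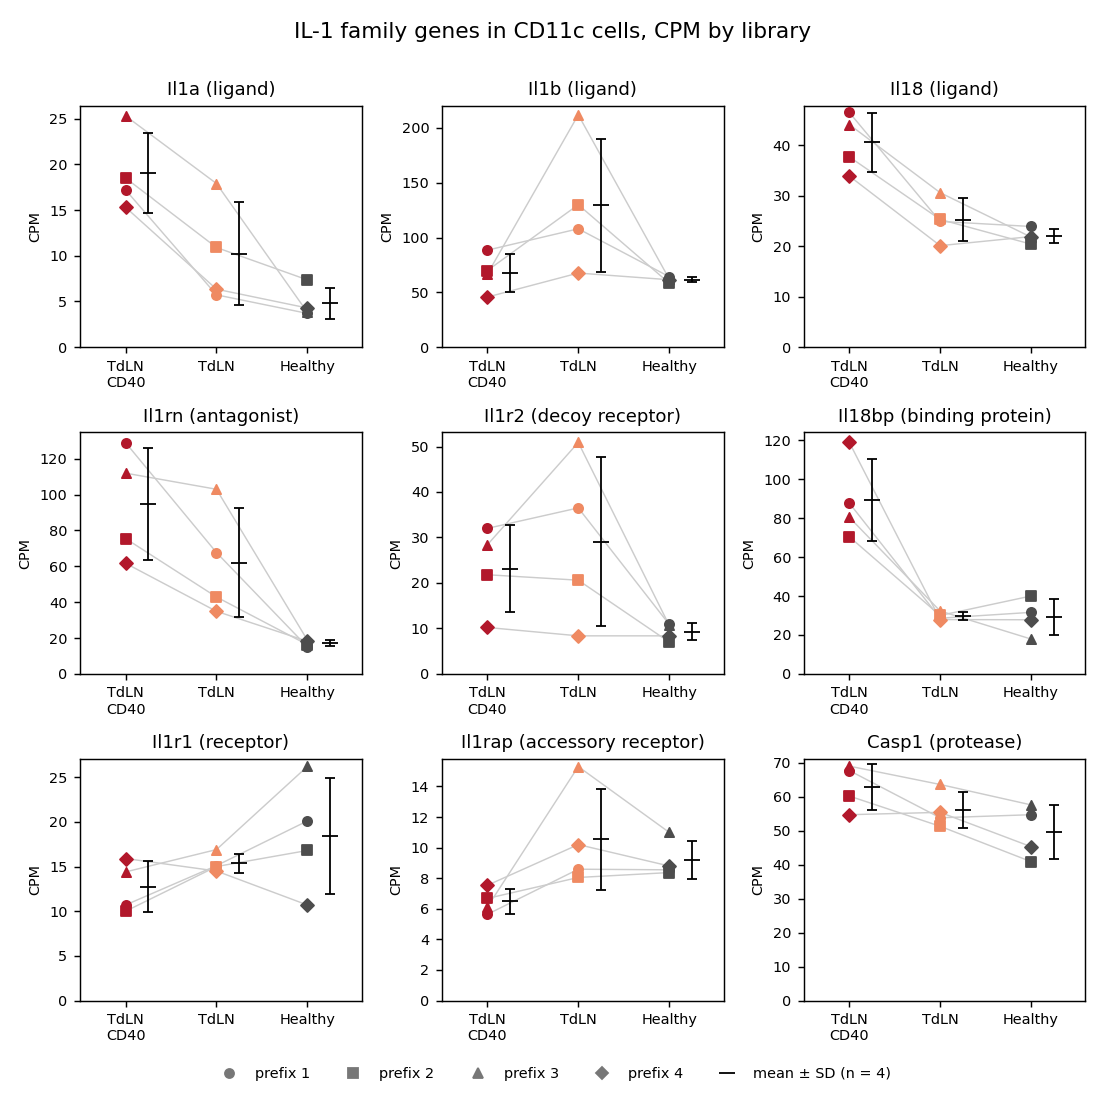
Level of each of the 9 IL-1 family genes in CPM (y axis, from 0) in the TdLN_CD40, TdLN and Healthy groups (x axis); points are libraries, grey lines join libraries that share a title prefix, and bars are the mean and SD of 4 libraries. Il1b is highest in the TdLN group, Il1rn is higher in TdLN_CD40 than in TdLN and higher in TdLN than in Healthy in every prefix, and Il18bp stands at 70.5 to 119 CPM in TdLN_CD40 and at 17.9 to 40 CPM elsewhere.

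Il1rn, the secreted or intracellular antagonist of the IL-1 receptor, rose in TdLN over Healthy. It stood at 129, 75.5, 112 and 61.7 CPM in TdLN_CD40 replicates 1 to 4, at 67.7, 42.9, 103 and 34.9 CPM in TdLN replicates 1 to 4, and at 15.1, 16.3, 18.9 and 18.2 CPM in Healthy replicates 1 to 4. Every TdLN library was far above every Healthy one, whereas the TdLN_CD40 and TdLN groups overlapped. The log2 fold change was 1.86 (SE 0.31, adjusted p = 0.0405) for TdLN over Healthy and 2.46 (SE 0.32, adjusted p = 0.000443) for TdLN_CD40 over Healthy. TdLN_CD40 over TdLN gave 0.60 (SE 0.30, adjusted p = 0.432), higher in 4 of 4 prefixes and not called, and 0.96 (adjusted p = 0.0980) without TdLN replicate 3.

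The call of Il1rn in TdLN over Healthy lay close to the threshold and was lost without TdLN replicate 1 (1.81, adjusted p = 0.106), TdLN replicate 3 (1.5, adjusted p = 0.10), Healthy replicate 1 (1.79, adjusted p = 0.199), Healthy replicate 2 (1.84, adjusted p = 0.143), Healthy replicate 3 (1.91, adjusted p = 0.115) or Healthy replicate 4 (1.89, adjusted p = 0.0896). It was also lost with limma voom (1.73, adjusted p = 0.102) and with limma on log2(TPM + 1) (1.85, adjusted p = 0.0910). In the blocked fit it was called at 1.73 (SE 0.27, adjusted p = 0.0158), and under the same block the call was lost without prefix 1, 2 or 3, at adjusted p = 0.0797, 0.102 and 0.0821. The call in TdLN_CD40 over Healthy held without each library, with log2 fold changes of 2.15 to 2.67 over all settings.

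Il18bp, the soluble decoy of interleukin-18, rose with the agonist by more than any other member did in TdLN_CD40 over TdLN. It was 87.8, 70.5, 80.5 and 119 CPM in TdLN_CD40 replicates 1 to 4, 28.6, 30.0, 32.3 and 27.9 CPM in TdLN replicates 1 to 4, and 31.6, 40, 17.9 and 27.8 CPM in Healthy replicates 1 to 4. All TdLN_CD40 libraries were above all others, and the TdLN values lay within the Healthy range. The log2 fold change was 1.59 (SE 0.21, adjusted p = 0.00179) for TdLN_CD40 over TdLN and 1.61 (SE 0.21, adjusted p = 0.000472) for TdLN_CD40 over Healthy. TdLN over Healthy gave 0.02 (SE 0.21, adjusted p = 0.983). Il18bp overlaps the 3′ end of Numa1 on the other strand by 80 bases, and Numa1 itself was at 31.9 to 63.8 TPM.

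Il1r2, the membrane decoy that lacks a signalling domain, was 32.0, 21.8, 28.4 and 10.2 CPM in TdLN_CD40 replicates 1 to 4, 36.5, 20.6, 50.9 and 8.36 CPM in TdLN replicates 1 to 4, and 10.9, 7.0, 10.7 and 8.36 CPM in Healthy replicates 1 to 4. It was higher in the tumor-bearing groups in prefixes 1, 2 and 3, and in prefix 4 the TdLN and Healthy libraries were level, at 8.36 CPM each. The log2 fold change was 1.65 (SE 0.48, adjusted p = 0.267) for TdLN over Healthy, 1.32 (SE 0.47, adjusted p = 0.146) for TdLN_CD40 over Healthy and -0.33 (SE 0.46, adjusted p = 0.892) for TdLN_CD40 over TdLN, none of them called. Without TdLN replicate 4 the TdLN difference was 1.96 (adjusted p = 0.0300), without TdLN replicate 3 it was 1.24 (adjusted p = 0.825) and that of TdLN_CD40 over TdLN was 0.08 (adjusted p = 0.991), and DESeq2 called it at 1.67 (adjusted p = 0.00730).

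The receptor chains were low and did not move with the decoys. Il1r1, the signalling receptor, averaged 12.8 ± 2.86 CPM in TdLN_CD40, 15.4 ± 1.03 CPM in TdLN and 18.4 ± 6.45 CPM in Healthy cells (SD, n = 4 each), with overlapping groups. Its log2 fold change was -0.26 (SE 0.23) for TdLN over Healthy, -0.27 (SE 0.23) for TdLN_CD40 over TdLN and -0.53 (SE 0.23) for TdLN_CD40 over Healthy, at adjusted p = 0.802, 0.758 and 0.233. Il1rap, the chain shared with the interleukin-33 and interleukin-36 receptors, was 5.64, 6.68, 6.12 and 7.54 CPM in TdLN_CD40 replicates 1 to 4, 8.59, 8.05, 15.3 and 10.2 CPM in TdLN replicates 1 to 4, and 8.55, 8.37, 11 and 8.80 CPM in Healthy replicates 1 to 4. Every TdLN_CD40 library was below every library of the other groups. The log2 fold change of Il1rap was -0.70 (SE 0.21, adjusted p = 0.102) for TdLN_CD40 over TdLN and -0.50 (SE 0.21, adjusted p = 0.209) for TdLN_CD40 over Healthy, neither called. Without TdLN replicate 3 the first was -0.46 (adjusted p = 0.291). In the blocked fit both were, at -0.66 (SE 0.15, adjusted p = 0.0149) and -0.49 (SE 0.15, adjusted p = 0.0441). DESeq2 called the first too, at adjusted p = 0.0298, and under the block it was lost without prefix 1 (-0.66, adjusted p = 0.0704), whereas the second was lost without prefix 1, 2 or 3, at adjusted p = 0.165, 0.0561 and 0.0579.

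Casp1, the protease that matures interleukin-1 beta and interleukin-18, was among the steadiest members. It was 67.7, 60.2, 69.0 and 54.7 CPM in TdLN_CD40 replicates 1 to 4, 53.8, 51.3, 63.6 and 55.4 CPM in TdLN replicates 1 to 4, and 54.7, 40.9, 57.6 and 45.3 CPM in Healthy replicates 1 to 4, so that the groups overlapped. The log2 fold changes were 0.18 (SE 0.14, adjusted p = 0.784) for TdLN over Healthy, 0.17 (SE 0.14, adjusted p = 0.740) for TdLN_CD40 over TdLN and 0.34 (SE 0.14, adjusted p = 0.184) for TdLN_CD40 over Healthy. In the blocked fit the last of these was called, at 0.35 (SE 0.08, adjusted p = 0.00682), and that call was lost without prefix 2 (0.23, adjusted p = 0.104).

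Per length, the order of the members changed between groups. In TdLN_CD40 cells the mean TPM ran from Il18bp (75.9 ± 24.7), Il1rn (72.4 ± 23.6), Il1b (65.7 ± 14.9) and Il18 (56.8 ± 4.01) to Casp1 (37.0 ± 2.69), Il1r2 (25.5 ± 12.4), Il1a (8.22 ± 2.0), Il1r1 (2.99 ± 1.0) and Il1rap (1.57 ± 0.370). In TdLN cells Il1b led at 135 ± 70 TPM, ahead of Il1rn at 56.9 ± 30.5, Il18 at 36.2 ± 7.10, Il1r2 at 34.2 ± 18.2, Casp1 at 33.0 ± 3.46 and Il18bp at 22.5 ± 2.26 TPM. In Healthy cells Il1b again led, at 72.7 ± 9.43 TPM, followed by Il18 at 31.5 ± 1.87, Casp1 at 30.0 ± 3.11, Il18bp at 22.9 ± 8.76, Il1r2 at 14.6 ± 4.31 and Il1rn at 13.7 ± 2.50 TPM. In TdLN_CD40 cells the neighbours whose means differed by less than the larger of their 2 SDs were the first 4 members, and Casp1 and Il1r2. In TdLN cells they ran from Il1rn to Casp1, and from Il1a over Il1r1 to Il1rap. In Healthy cells they ran from Il18 to Il1rn, and Il1rap lay level with Il1a. Il1a, Il1r1 and Il1rap were the 3 lowest in each group, at 1.57 to 8.22 TPM on average. This order is that of all annotated transcripts summed, also those without a complete reading frame. The coding Il1b-201 alone was at 36.3 ± 5.94 TPM in TdLN_CD40, 72.0 ± 35.9 in TdLN and 32.8 ± 2.50 in Healthy cells. In Healthy cells that was level with the summed Il18.

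Over all annotated transcripts, the ratio of antagonist to ligand differed between all 3 groups for IL-1. The TPM of Il1rn over the summed TPM of Il1a and Il1b was 1.17, 0.714, 1.17 and 0.848 in TdLN_CD40 replicates 1 to 4 (mean 0.976 ± 0.232, SD, n = 4), which is close to parity. It averaged 0.407 ± 0.0537 in TdLN and 0.186 ± 0.0498 in Healthy cells. On the log2 scale, with 0.1 TPM added, the libraries stood at 0.23, -0.49, 0.22 and -0.24 in TdLN_CD40, at -1.07, -1.52, -1.27 and -1.37 in TdLN, and at -2.79, -2.80, -2.10 and -2.13 in Healthy cells. With all transcripts counted, no group overlapped with another. The sums include short Il1b transcripts with no reading frame, at 44.0% to 54.2% of group mean Il1b TPM. Among coding transcripts, Il1b-201, Il1rn-201 and Il1rn-202 were at 79.8, 10.9 and 10.1 TPM in TdLN replicate 2. They were at 35.1, 4.91 and 5.71 TPM in Healthy replicate 4. Relative to Il1b-201, both Il1rn transcripts were lower in that TdLN library. The separation of TdLN from Healthy thus depends on the transcripts counted. The share of other genes or ratios that separate these groups in the same way was not counted. Within a prefix the log2 ratio was higher by 1.24 ± 0.20 (1.30, 1.03, 1.49 and 1.13) in TdLN_CD40 over TdLN and by 1.15 ± 0.44 (1.72, 1.28, 0.84 and 0.76) in TdLN over Healthy, each in 4 of 4 prefixes. Il1rn was higher in TdLN_CD40 and Il1b lower in TdLN_CD40 than in TdLN in each of the 4 prefixes, and neither difference alone was called. No test was run on the ratios, because the genes were chosen with earlier results known. The groups stayed in this order with CPM, which also counts all transcripts, in place of TPM.

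The ratios of the decoys did not follow the same course. Il18bp over Il18, as a log2 ratio of TPM, was 0.20, 0.05, 0.13 and 1.11 in TdLN_CD40, -0.71, -0.78, -0.80 and -0.37 in TdLN, and -0.55, 0.03, -1.14 and -0.48 in Healthy replicates 1 to 4. It was higher by 1.04 ± 0.29 within prefixes in TdLN_CD40 over TdLN, in 4 of 4 prefixes and with no overlap, since Il18bp rose more than Il18. TdLN minus Healthy was -0.13 ± 0.50, with 2 prefixes in each direction. Il1r2 over Il1r1 was higher by 1.43 ± 1.43 in TdLN over Healthy in 3 of 4 prefixes, and TdLN_CD40 minus TdLN was -0.29 ± 0.76, with overlapping groups in both. A large part of the Il1r2 TPM was that of a short incomplete transcript, given below.

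**Figure D3:**
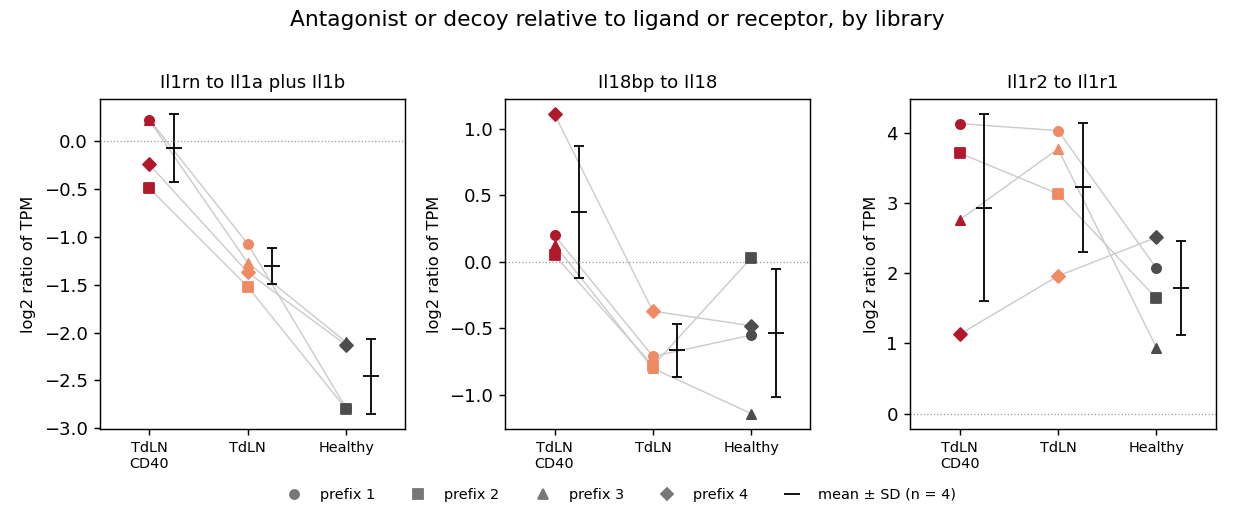
Log2 ratio of TPM (y axis) of Il1rn to Il1a plus Il1b, of Il18bp to Il18 and of Il1r2 to Il1r1 in the TdLN_CD40, TdLN and Healthy groups (x axis); points are libraries, grey lines join a title prefix, bars are mean and SD of 4 libraries, and the dotted line marks equal levels. With all annotated transcripts counted, the Il1rn ratio averages -0.07 in TdLN_CD40, -1.30 in TdLN and -2.45 in Healthy cells with no overlap. The Il1r2 ratio overlaps between groups.

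Il1rn encodes a secreted form and intracellular forms through alternative first exons, and its transcripts were therefore grouped by their annotated start. Transcripts from the proximal start include Il1rn-201, whose 178 codons are the longest reading frame of the gene, and those from the distal start include Il1rn-204, with 159 codons. The distal start took 18.2%, 19.3%, 18.1% and 13.7% of the estimated Il1rn counts in TdLN_CD40 replicates 1 to 4, 15.1%, 18.7%, 25.0% and 11.9% in TdLN replicates 1 to 4, and 18.6%, 12.2%, 13.1% and 10.5% in Healthy replicates 1 to 4. The groups overlapped in this share, and most Il1rn reads were assigned to the proximal start in every library. Il1rn-201 was at 22.4 ± 4.53 TPM in TdLN_CD40, 15.1 ± 6.70 TPM in TdLN and 4.80 ± 0.864 TPM in Healthy cells (SD, n = 4 each), and Il1rn-204 at 4.61 ± 1.38, 3.22 ± 2.62 and 0.655 ± 0.0943 TPM. Both transcripts were higher in every TdLN_CD40 and TdLN library than in any Healthy library. These shares depend on how Salmon divided reads between transcripts that share exons.

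**Figure D4:**
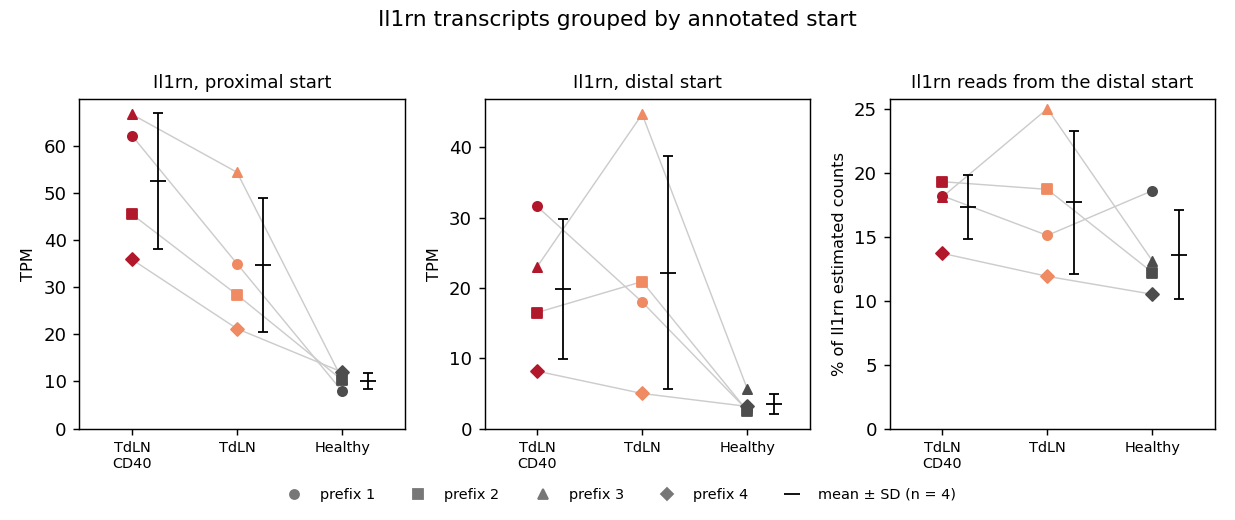
Summed TPM (y axis) of Il1rn transcripts from the proximal and the distal start, and the percent of estimated Il1rn counts from the distal start, in the TdLN_CD40, TdLN and Healthy groups (x axis); points are libraries, grey lines join a title prefix and bars are mean and SD of 4 libraries. The proximal start averages 52.6, 34.7 and 10.2 TPM, and the distal one 19.8, 22.1 and 3.49 TPM, of which short non-coding or truncated transcripts are a large part.

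Il1rap-206, which has 360 codons against the 570 of Il1rap-201 and ends upstream, took 25.4% ± 5.04 of the TPM of full-length coding Il1rap transcripts in TdLN_CD40, 22.9% ± 6.50 in TdLN and 21.9% ± 5.79 in Healthy cells (SD, n = 4 each), with overlapping groups. Short Il1b transcripts with no reading frame took 12% ± 2.58, 12.5% ± 2.49 and 18.1% ± 6.05 of the Il1b counts in TdLN_CD40, TdLN and Healthy cells. Being short, they made up 44.0%, 46.2% and 54.2% of the Il1b TPM, so that the TPM of Il1b counts more than the coding transcript. Genes annotated on the opposite strand lay over 6 of the 9 members, and apart from Numa1 these were at 8.15 TPM or less.

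Of 13 other IL-1 family ligands and receptors, 9 had enough reads to test. None was called in TdLN over Healthy or in TdLN_CD40 over TdLN, and 2 fell in TdLN_CD40 over Healthy, beside 2.03% of all genes. Il1rl2, the interleukin-36 receptor chain, fell to 7.49 ± 2.33 CPM in TdLN_CD40, against 19.1 ± 6.92 CPM in Healthy cells (log2 fold change -1.35, adjusted p = 0.00434). Il1rl1, the interleukin-33 receptor chain, fell to 2.61 ± 0.637 CPM, against 6.01 ± 0.561 CPM (log2 fold change -1.20, adjusted p = 0.0137). The median log2 fold change of the 9 was -0.26 in TdLN over Healthy, -0.28 in TdLN_CD40 over TdLN and -0.59 in TdLN_CD40 over Healthy. In TdLN over Healthy, the interleukin-18 receptor chains were called in opposite directions under the block only: Il18r1 was lower (-0.85, adjusted p = 0.262 without and 0.00635 with the block) and Il18rap higher (0.78, adjusted p = 0.444 without and 0.0414 with it). In TdLN_CD40 over TdLN, Il1rl2 (-0.81, adjusted p = 0.116 without and 0.00277 with the block) and Il1rl1 (-0.94, adjusted p = 0.0793 without and 0.00642 with it) were called lower under the block only, as was Il18r1 in TdLN_CD40 over Healthy (-0.59, adjusted p = 0.226 without and 0.00902 with it). With the block, 4.02% of all genes were called higher and 2.28% lower in TdLN over Healthy. Those called lower with it were 6.58% in TdLN_CD40 over TdLN and 8.46% in TdLN_CD40 over Healthy. Il36a, Il36b and Il36rn were below the filter, and Il1f10 was listed at 0 in all libraries.

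Upstream of the cytokines, 16 inflammasome and pyroptosis genes were tested. None was called in TdLN over Healthy, and 2 rose in TdLN_CD40 over TdLN, beside 1.85% of all genes. Casp4 (caspase-11), the sensor of the non-canonical inflammasome, rose to 43.0 ± 4.52 CPM in TdLN_CD40, against 24.6 ± 2.83 CPM in TdLN cells (log2 fold change 0.81, adjusted p = 0.00435). Gsdmd, the pore-forming substrate of inflammatory caspases, was at 134 to 153 CPM in TdLN_CD40 and at 85.6 to 110 CPM in TdLN cells (0.58, adjusted p = 0.0171). Both were also higher in TdLN_CD40 than in Healthy cells (1.05 and 0.60, adjusted p = 0.000271 and 0.00723), as was Naip2 (0.58, adjusted p = 0.0322), an inflammasome receptor for bacterial secretion-system proteins whose reads may be shared with its near-identical neighbours. Nlrp1b, an inflammasome sensor, fell there (-0.99, adjusted p = 0.00374). Of all genes, 4.25% were called higher and 2.03% lower in that comparison. The median log2 fold change of the list was 0.14, -0.09 and 0.19 in TdLN over Healthy, TdLN_CD40 over TdLN and TdLN_CD40 over Healthy. With the block, 3 genes rose and 1 fell in TdLN over Healthy, led by Nlrc4 (0.51, adjusted p = 0.186 without and 0.00518 with the block) and Casp8 (0.36, adjusted p = 0.475 without and 0.0170 with it). Under the block the counts were 3 higher and 4 lower in TdLN_CD40 over TdLN, and 8 higher and 2 lower in TdLN_CD40 over Healthy. The blocked fit called 6.30%, 13.3% and 20.1% of all genes in TdLN over Healthy, TdLN_CD40 over TdLN and TdLN_CD40 over Healthy. The block-only calls with the smallest p were Naip2 (0.52, adjusted p = 0.0861 without and 0.00174 with the block) and Nlrp1b (-0.56, adjusted p = 0.130 without and 0.00194 with it) in TdLN_CD40 over TdLN. In TdLN_CD40 over Healthy they were Casp8 (0.47, adjusted p = 0.0614 without and 0.000810 with the block) and Naip6 (-0.39, adjusted p = 0.109 without and 0.00244 with it).

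Downstream of the receptor, none of the 16 adaptors, kinases and NF-kB subunits was called in any comparison by edgeR without the block, and their median log2 fold changes were 0.09, -0.05 and 0.10 in the same order of comparisons. With the block, 4 were higher in TdLN over Healthy, including the subunit Nfkb1 (0.50, adjusted p = 0.655 without and 0.00400 with the block) and the adaptor Myd88 (0.76, adjusted p = 0.219 without and 0.00490 with it), while 1 was higher and 3 lower in TdLN_CD40 over TdLN and 2 higher in TdLN_CD40 over Healthy. In TdLN_CD40 over TdLN these were led by Nfkb1, lower (-0.61, adjusted p = 0.253 without and 0.000334 with the block), and Irak3, an inhibitory kinase homolog, higher (0.52, adjusted p = 0.0820 without and 0.0104 with it), and in TdLN_CD40 over Healthy by Traf6 (0.34, adjusted p = 0.142 without and 0.0129 with it) and Myd88 (0.35, adjusted p = 0.470 without and 0.0357 with it). The blocked fit called 4.02%, 6.74% and 11.7% of all genes higher and 2.28%, 6.58% and 8.46% lower, in the same order of comparisons. The 2 of 16 higher in TdLN_CD40 over Healthy are near that share.

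Of 17 tested genes known to be induced by IL-1 and NF-kB, none was called in TdLN over Healthy. Il6 rose in TdLN_CD40 over TdLN, at 5.25, 5.96, 3.71 and 2.78 CPM in TdLN_CD40 and 0.505, 0.759, 0.945 and 0.682 CPM in TdLN replicates 1 to 4 (2.61, adjusted p = 0.00179). In TdLN_CD40 over Healthy 5 rose, among them Il6 (2.52, adjusted p = 0.000648), the nitric oxide synthase Nos2 (4.71, adjusted p = 0.0175), the NF-kB inhibitor Nfkbia (0.57, adjusted p = 0.0284) and the cytokine Csf2 (2.68, adjusted p = 0.0356), the last at only 0.692 ± 0.267 CPM in TdLN_CD40 and 0.108 ± 0.102 CPM in Healthy cells. Nos2 was at 24.8 CPM in TdLN_CD40 replicate 1 and at 2.38 to 4.94 CPM in the other 3. The median log2 fold change of these genes was 0.07, 0.50 and 0.59. Without the block, 1.85% and 4.25% of all genes were called higher in TdLN_CD40 over TdLN and over Healthy. With the block the counts called were 3, 8 and 10, all higher, beside 4.02%, 6.74% and 11.7% of all genes. Genes of the list called only with the block and with the smallest p were Bcl3 and Cxcl2 in TdLN over Healthy (0.62 and 2.53, adjusted p = 0.00322 and 0.0417 with the block), Icam1 and Nfkbia in TdLN_CD40 over TdLN (0.54 and 0.50, adjusted p = 0.00167 and 0.00421 with it), and Bcl3 and Icam1 in TdLN_CD40 over Healthy (0.67 and 0.56, adjusted p = 0.000244 and 0.000778 with it).

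On the interleukin-18 and interferon gamma axis, 6 of 10 genes rose in TdLN_CD40 over TdLN, 7 rose in TdLN_CD40 over Healthy, and none was called in TdLN over Healthy. Of all genes, 1.85% were called higher in TdLN_CD40 over TdLN and 4.25% in TdLN_CD40 over Healthy. Interferon gamma, Ifng, was at 3.16, 1.70, 3.67 and 1.90 CPM in TdLN_CD40 and at 0.436, 0.325, 0.386 and 0.727 CPM in TdLN replicates 1 to 4 (log2 fold change 2.47, adjusted p = 0.0171). It thus rose beside Il18 and Il18bp, at a far lower level. The interleukin-12 receptor chain Il12rb1 (1.47, adjusted p = 0.00570), the interferon-induced factor Irf1 (0.79, adjusted p = 0.00734) and the interleukin-12 signal transducer Stat4 (0.85, adjusted p = 0.0226) rose in the same comparison. In TdLN_CD40 over Healthy the genes called included Stat4 (1.54, adjusted p = 0.000271), Irf1 (0.78, adjusted p = 0.00347) and the interleukin-12 subunit Il12b (1.04, adjusted p = 0.00549). The median log2 fold change of the axis was 0.09, 0.82 and 1.03. With the block 3 genes were higher in TdLN over Healthy, beside 4.02% of all genes, led by Stat4 (0.69, adjusted p = 0.178 without and 0.00801 with the block) and Tbx21 (0.93, adjusted p = 0.565 without and 0.0151 with it). With the block 7 rose and 1 fell in TdLN_CD40 over TdLN, beside 6.74% and 6.58% of all genes. In TdLN_CD40 over Healthy 8 rose with the block, beside 11.7% of all genes. The gene that fell was the interleukin-12 receptor chain Il12rb2 (-0.34, adjusted p = 0.393 without and 0.0377 with the block), and Il12a, the other interleukin-12 subunit, was called higher with the block only, in TdLN_CD40 over TdLN (1.33, adjusted p = 0.0747 without and 0.00835 with it) and over Healthy (0.89, adjusted p = 0.202 without and 0.0423 with it).

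Markers of other cell types moved along with several members, and their part in the results was not tested. The marker calls below stand beside shares of all genes. Without the block these were 0.198% in TdLN over Healthy, 2.68% in TdLN_CD40 over TdLN and 6.28% in TdLN_CD40 over Healthy. With the block they were 6.30%, 13.3% and 20.1%. The summed CPM of 13 neutrophil markers was 66.4 to 145 in TdLN_CD40, 55.4 to 188 in TdLN and 29.1 to 40.8 in Healthy libraries. Of 10 tested, 1 rose in TdLN over Healthy (Csf3r, 1.18, adjusted p = 0.0426), none was called in TdLN_CD40 over TdLN and 3 rose in TdLN_CD40 over Healthy, led by Csf3r (1.07, adjusted p = 0.00508) and Cxcr2 (1.36, adjusted p = 0.00678); with the block 5 rose in TdLN over Healthy and 8 in TdLN_CD40 over Healthy. TdLN replicate 3, which had the most Il1b, Il1r2 and Il1rn of the TdLN libraries, also had the highest neutrophil sum, 188 CPM, and TdLN replicate 4, which had the least of each, had the lowest, 55.4 CPM. The high value in replicate 3 was not particular to neutrophil markers. It was also the highest TdLN library for the monocyte, macrophage, type 2 dendritic, Langerhans, B and plasma cell, and stromal sums. It was not the highest for the type 1, migratory and plasmacytoid dendritic or the T and natural killer cell sums. Other genes of the list had larger differences in TdLN over Healthy that did not pass without the block, such as Retnlg at 6.83 ± 7.27 CPM in TdLN and 0.248 ± 0.212 CPM in Healthy cells (4.73, adjusted p = 0.112 without and 0.00240 with the block) and Mmp9 at 22.2 ± 23.2 and 2.24 ± 0.976 CPM (3.30, adjusted p = 0.0946 without and 0.0174 with it). S100a8 (3.24, adjusted p = 0.532 without and 0.0340 with the block) and S100a9 (3.33, adjusted p = 0.303 without and 0.0590 with it) were also higher in 4 of 4 prefixes. These 4 genes were singled out once their values had been seen. So were Ltf (-0.24, adjusted p = 0.958 without the block) and Mpo (-0.20, adjusted p = 0.938 without it), which went the other way. Ltf was higher in 1 and Mpo in 2 of 4 prefixes, and with the block they were at 0.16 and -0.03. Ly6g, Elane and Camp, also on the neutrophil list, were at or near 0, at 0.108 CPM or less in every library.

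The summed CPM of 13 macrophage markers was 1357 to 2019 in TdLN_CD40, 761 to 1273 in TdLN and 798 to 1071 in Healthy libraries. Of 12 tested, 4 rose, 1 fell and 7 did not pass in TdLN_CD40 over TdLN, where Il18bp and Il18 rose. The calls were led by Cd5l (2.05, adjusted p = 0.000972) and Siglec1 (1.88, adjusted p = 0.00118), and 8 rose and 2 fell in TdLN_CD40 over Healthy, with Cd5l higher (3.35, adjusted p = 1.48e-05) and Cd163 lower (-2.51, adjusted p = 0.000249). Cd163 was also the gene that fell in TdLN_CD40 over TdLN (-1.51, adjusted p = 0.0113). None was called in TdLN over Healthy without the block. With it, 1 rose and 2 fell in TdLN over Healthy, and 4 rose and 2 fell in TdLN_CD40 over TdLN. Over Healthy, 8 rose and 2 fell in TdLN_CD40 with the block. Monocyte markers summed to 655 to 1023 CPM in TdLN_CD40, 926 to 1515 CPM in TdLN and 730 to 1114 CPM in Healthy libraries, highest in TdLN replicate 3 as for Il1b. Of 11 monocyte markers, 2 fell in TdLN_CD40 over TdLN, Ccr2 (-1.46, adjusted p = 0.000761) and F13a1 (-1.20, adjusted p = 0.0170), 2 rose and 2 fell in TdLN_CD40 over Healthy, and none was called in TdLN over Healthy. Markers of type 1 conventional dendritic cells summed to 1721 to 3369 CPM in TdLN_CD40, 2965 to 6060 CPM in TdLN and 3565 to 6210 CPM in Healthy libraries, with 2 and 6 of 10 lower in TdLN_CD40 over TdLN and over Healthy. Markers of migratory and mature dendritic cells, like Il18bp and Il18, had their highest sum with the agonist, at 7461 to 11145 CPM in TdLN_CD40, 3797 to 5752 CPM in TdLN and 4548 to 6424 CPM in Healthy libraries. Of 12, 4 rose in TdLN_CD40 over TdLN, led by Ccr7 (1.69, adjusted p = 0.00139) and Cd200 (0.85, adjusted p = 0.00435), and 6 rose in TdLN_CD40 over Healthy, while 1 (Cd200, 0.71, adjusted p = 0.0475) was called in TdLN over Healthy. Type 2 conventional dendritic cell markers summed to 1216 to 1878 CPM in TdLN_CD40, 1550 to 2322 CPM in TdLN and 1237 to 2018 CPM in Healthy libraries. Of these 10 genes, 4 fell in TdLN_CD40 over TdLN, led by Cd209a (-2.67, adjusted p = 0.00144) and Clec10a (-1.22, adjusted p = 0.00697), and 4 fell and 1 rose in TdLN_CD40 over Healthy, led by Cd209a (-3.14, adjusted p = 0.000199) and Mgl2 (-2.18, adjusted p = 0.000466). Clec4a4 was the one that rose there (1.78, adjusted p = 0.00611), and it was the only marker of this list called in TdLN over Healthy (1.99, adjusted p = 0.0436), where Il1rn was the only member called. More dendritic markers were called with the block. In TdLN_CD40 over TdLN, 1 type 1 marker rose and 7 fell, 9 migratory markers rose and 6 type 2 markers fell with it. In TdLN over Healthy, 4 type 2 and 2 migratory markers rose with it, and no type 1 marker was called.

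Lymphoid and skin-derived markers moved too. B and plasma cell markers summed to 452 to 582 CPM in TdLN_CD40, 408 to 717 CPM in TdLN and 302 to 459 CPM in Healthy libraries, and 2 of 9 rose in TdLN over Healthy beside Il1rn, Jchain (3.30, adjusted p = 0.0253) and Mzb1 (1.56, adjusted p = 0.0405). None of them was called in TdLN_CD40 over TdLN, and 3 rose in TdLN_CD40 over Healthy. T and natural killer cell markers summed to 229 to 469 CPM in TdLN_CD40, 258 to 509 CPM in TdLN and 304 to 526 CPM in Healthy libraries. Of these 11, Gzma alone rose in TdLN_CD40 over TdLN, beside Il18 and Ifng (2.15, adjusted p = 0.00435), 1 rose and 2 fell in TdLN_CD40 over Healthy, and none was called in TdLN over Healthy. Langerhans cell markers summed to 68.4 to 108 CPM in TdLN_CD40, 109 to 180 CPM in TdLN and 161 to 200 CPM in Healthy libraries; of 5, Cldn1 fell in TdLN_CD40 over TdLN (-1.0, adjusted p = 0.0423) and 3 fell in TdLN_CD40 over Healthy, led by Cldn1 (-1.75, adjusted p = 0.000706) and Cd207 (-2.94, adjusted p = 0.00633). Plasmacytoid markers (448 to 903, 548 to 1306 and 539 to 1170 CPM in the same order of groups) and stromal and endothelial markers (94.9 to 269, 120 to 195 and 144 to 198 CPM) had no gene called by edgeR without the block. With the block, 1 of 10 plasmacytoid markers rose in TdLN over Healthy, 5 fell in TdLN_CD40 over TdLN, and 1 rose and 4 fell in TdLN_CD40 over Healthy. In TdLN over Healthy, 4 B and plasma cell markers rose with the block, and 2 T and natural killer and 1 Langerhans cell marker fell. In TdLN_CD40 over TdLN, 1 B and plasma cell and 2 T and natural killer cell markers rose with it. There 1 Langerhans cell marker rose and 2 fell. Which cells of the preparation carried the IL-1 family transcripts cannot be told from these libraries.

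**Figure D5:**
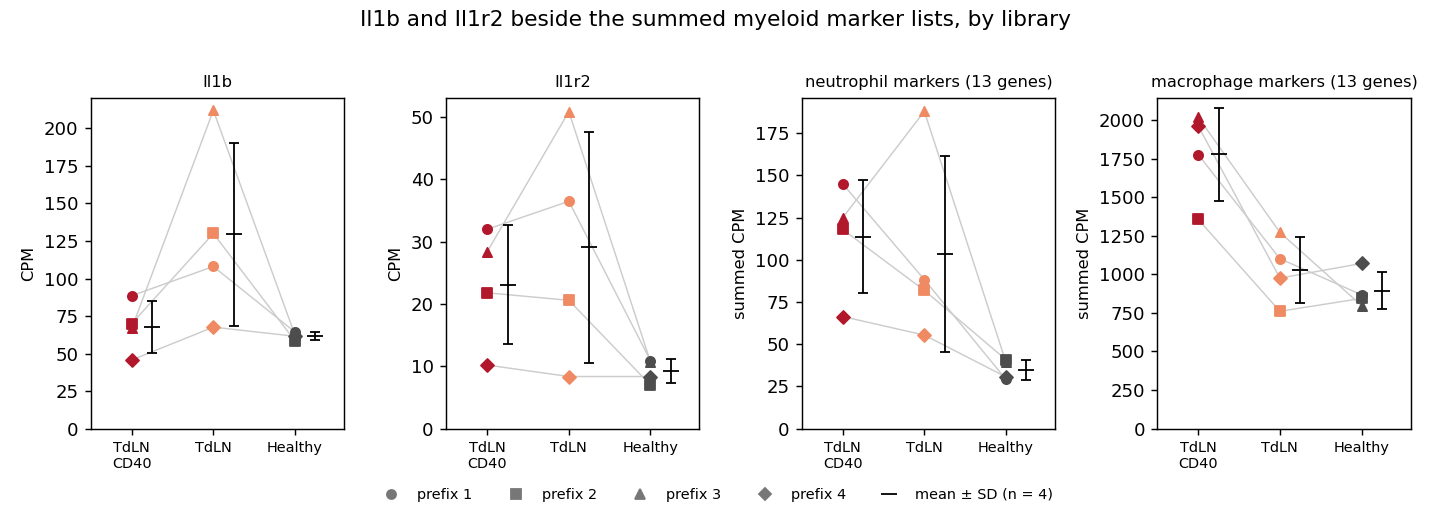
Il1b and Il1r2 in CPM, and the summed CPM of 13 neutrophil and 13 macrophage markers (y axes, from 0), in the TdLN_CD40, TdLN and Healthy groups (x axis); points are libraries, grey lines join a title prefix, and bars are mean and SD of 4 libraries. TdLN replicate 3 is the highest of its group in all 4 panels, and the macrophage sum is 1357 or more in every TdLN_CD40 library.

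The genes whose pattern over the 12 libraries was most like a member's were taken as those with the smallest root mean square difference of centred log2 CPM, among 11714 genes. For Il1rn these were Pilra (0.26), Gstt1 (0.28), Pilrb1 (0.32), Rtp4 (0.33) and Msr1 (0.34). For Il1b they were B4galt6 (0.31), Slc8a1 (0.32), Scel (0.32), Trim59 (0.32) and Sh2d1b1 (0.34), and for Il18bp Mt1 (0.21), Gbp5 (0.23), Slc1a2 (0.25), Slc1a3 (0.26) and Serpina3f (0.26). The 3 sets had no gene in common.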

How the data were processed

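Per the labels' protocols, RNA was extracted with Qiagen's RNeasy Plus Micro kit and sequenced from NEBNext Ultra II Directional libraries. The deposited estimated counts and TPM values are the authors' output per transcript from Salmon on mm10, per the submitters' processing notes. The deposited tables carry the name of a related program, Sailfish. The sources used here do not give the program version, annotation release or strand setting. Of 132374 transcripts, 131974 were matched to GENCODE M21 (GRCm38) and summed to 52355 genes. The other 400 held 0.116% to 0.147% of a library's counts. Sums were rounded to whole numbers.

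Genes were tested with edgeR 4.0.16 (R 4.3.3; quasi-likelihood F test, robust, TMM scaling, filterByExpr with minimum count 10), which left 23729 genes and 9 residual degrees of freedom, with a coefficient of biological variation of 33.9%. Over the 18 library pairs within groups, chi-square divided by its degrees of freedom was at least 24.9, above sampling noise. Deviations from group means correlated at 0.20 to 0.47 in the 12 library pairs with the same title prefix and at a median of -0.24 in the 36 others. Deviations cancel out within a group, so positive values for the same prefix force negative ones elsewhere. The second fit therefore took the prefix as a block. The main fit did not pair libraries, and its calls leave this likeness out. The sources used here do not say what the prefix is. The blocked fit left 6 residual degrees of freedom and a coefficient of 20.7%. Alternatives were DESeq2 1.42.0, limma 3.58.1 (voom, and log2(TPM + 1)), other scalings and filters, and leaving out libraries. The fitting code was tested on simulated data.

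The members, gene lists and tests were chosen with earlier results of these data known. All 9 members were named in every comparison. From each pathway list the genes called without the block, up to 4 by smallest p, and those called with the block only, up to 2, were named. A gene that these rules also take is not reported here. Of each marker list the counts, sums and up to 2 genes by smallest p were given, besides 3 further genes of the neutrophil list and others named as chosen after their values were seen. The 5 genes most like Il1rn, Il1b and Il18bp were named from those whose log2 CPM averaged at least 1.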

Additional observations from a re-analysis of the deposited data

Results flagged for a closer look

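In 3 of 36 groups of 4 libraries (9 genes in 3 groups, and 3 ratios in 3 groups), 1 library lay far from the other 3 for the range of its group, and chance gives about 1 in 20. Il1a was at 7.36 CPM in Healthy replicate 2, against 3.69 to 4.28 CPM in the other Healthy libraries. Without that library the log2 fold change of Il1a in TdLN over Healthy was 1.38 (adjusted p = 0.269, edgeR). Il1rap was at 11 CPM in Healthy replicate 3, against 8.37 to 8.80 CPM in the others. The log2 ratio of Il18bp to Il18 was 1.11 in TdLN_CD40 replicate 4, against 0.05 to 0.20 in the other TdLN_CD40 libraries, and that library had both the most Il18bp, 119 CPM, and the least Il18, 33.9 CPM, of its group.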

How the results depend on the processing

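Of 621 recomputed values of the members' log2 fold changes, 557 kept their direction and side of the threshold, 29 passed it newly, 24 fell short of it newly and 11 turned sign. Those that turned were not called. Il1b in TdLN_CD40 over Healthy was -0.17 with limma on log2(TPM + 1), -0.03 to 0.30 with libraries or prefixes left out, and -0.05 and -0.02 without prefix 1 or 2 in the blocked fit. Il18bp in TdLN over Healthy was -0.21 to 0.20 with leave-outs, and -0.21 without prefix 3 in the blocked fit. Il1rap in TdLN over Healthy was -0.04 to 0.31 and Il1r2 in TdLN_CD40 over TdLN -0.66 to 0.08 with leave-outs, turned in both by leaving out TdLN replicate 3. All 108 recomputed ratio differences moved by less than 1 SD over prefixes, which is a weak check. The replicate-block values equal the main ones by construction, and leaving out 1 library shifts a mean of 4 only in part. The SD was also wide for Il1r2 to Il1r1. It was 1.43 for TdLN minus Healthy and 1.69 for TdLN_CD40 minus Healthy, beside means of 1.43 and 1.14.

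Members called in TdLN over Healthy numbered 3 with DESeq2, 0 with limma voom, 0 with limma on log2(TPM + 1), 0 to 3 with leave-outs, and 0, 0, 0 and 3 without prefix 1, 2, 3 or 4 in the blocked fit. In TdLN_CD40 over TdLN they numbered 4 with DESeq2, 1 with limma on log2(TPM + 1), 1 to 3 with leave-outs, and 4 and 4 without prefix 3 or 4 in the blocked fit. In TdLN_CD40 over Healthy, 8 were called without prefix 4 in the blocked fit. The replicate block alone changed the member calls of Il1rap and Casp1 and no other.

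Over all genes, TdLN over Healthy had 47 calls. There were 75 without a filter, 395 with DESeq2, 1 with voom, 10 on TPM, 25 with only the 2 groups fitted, 1495 with the replicate block, 0 to 101 with leave-outs, and 107, 193, 164 and 1502 without prefix 1, 2, 3 or 4 in the blocked fit. TdLN_CD40 over TdLN had 635 calls, and 1177 with DESeq2, 289 on TPM, 3161 with the block, 125 to 477 with leave-outs, and 1609, 2241, 2311 and 2333 in the blocked fit without each prefix. TdLN_CD40 over Healthy had 1490 calls, and 821 on TPM, 4781 with the block, 475 to 1243 with leave-outs, and 2751, 3134, 3172 and 4450 in the blocked fit without each prefix. Leaving out a prefix in the blocked fit was chosen after seeing the data. Fewer samples enter each leave-out; the cause of the other changes was not tested.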
